A study of Mus musculus with 6 samples.

Results

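The genes described here are 10 genes of cartilage matrix, Col2a1, Col9a1, Col9a2, Col9a3, Col11a1, Col11a2, Acan, Comp, Hapln1 and Matn2, chosen by name out of the 17312 genes in the deposited expression table. They were measured in 6 mouse leg tumors. The SS18-SSX1 group has 3 tumors from mice with a Cre-lox inducible allele of SS18-SSX1, and the SS18-SSX2 group has 3 from mice with a Cre-lox inducible allele of SS18-SSX2. SS18-SSX1 and SS18-SSX2 are forms of the fusion oncoprotein of synovial sarcoma, a soft tissue cancer, and join a subunit of the BAF chromatin remodelling complex to part of an SSX protein. In both groups the allele was switched on with TATCre, a cell-permeable form of Cre recombinase, injected into the soft tissue over the tibia; tumors were taken about 1 year later with no other treatment. Because the protein reaches whichever cells lie at the injection site, the labels fix no cell of origin. The sources used here give neither age, sex nor strain, nor whether each tumor had its own mouse, and a p-value covers no more than the spread between these 6 samples.

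Cartilage matrix is a network of thin collagen fibrils filled with a hydrated proteoglycan gel. The fibrils are heteropolymers: type II collagen, 3 identical chains encoded by Col2a1, is copolymerised with type XI collagen, which contains the chains of Col11a1 and Col11a2 and limits fibril width, and type IX collagen, assembled from the chains of Col9a1, Col9a2 and Col9a3, sits on the fibril surface. Acan encodes aggrecan, the large chondroitin sulfate proteoglycan of the gel, and Hapln1 the link protein that fastens aggrecan to hyaluronan. Comp and Matn2 encode adaptor proteins that bridge matrix components. In chondrocytes many of these genes are activated by the transcription factor SOX9 with SOX5 and SOX6. Several members also have other sites of expression, among them tendon for Comp.

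All 6 collagen members encode a triple helix built of Gly-X-Y triplets, with glycine at regular steps, and much of it is encoded by exons of 54 bases that begin with a glycine codon and hold 6 Gly-X-Y triplets. The longest uninterrupted run of such triplets was 339 in the longest annotated coding transcript of Col2a1, 338 in both Col11a1 and Col11a2, and 113 in each of Col9a1, Col9a2 and Col9a3. Exons of 54 bases made only of these triplets numbered 24 in Col2a1, 31 in each type XI gene and 14 in each type IX gene. The first such exon of each gene is printed to display the repeat that the fibril and fibril-surface chains share; it is from GENCODE mouse release 21 on GRCm38, 5′ to 3′ on the coding strand, with the glycine codon (GGN) that opens each Gly-X-Y triplet in capitals.
Col2a1 exon 6, chr15:97998545-97998598, minus strand: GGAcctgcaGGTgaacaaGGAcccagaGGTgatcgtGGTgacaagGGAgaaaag
Col11a1 exon 15, chr3:114108281-114108334, plus strand: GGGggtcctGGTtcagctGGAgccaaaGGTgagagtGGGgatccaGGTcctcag
Col11a2 exon 13, chr17:34051480-34051533, plus strand: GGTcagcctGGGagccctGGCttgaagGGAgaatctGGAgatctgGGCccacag
Col9a1 exon 11, chr1:24202014-24202067, plus strand: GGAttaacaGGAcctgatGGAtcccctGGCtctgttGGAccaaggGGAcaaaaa
Col9a2 exon 5, chr4:121043696-121043749, plus strand: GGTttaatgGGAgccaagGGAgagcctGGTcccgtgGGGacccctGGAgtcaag
Col9a3 exon 6, chr2:180601582-180601635, plus strand: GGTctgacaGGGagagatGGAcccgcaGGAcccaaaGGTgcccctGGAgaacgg
The 4 other members are Acan (chr7:79053483-79115099), Comp (chr8:70373558-70382066), Hapln1 (chr13:89539796-89611652) and Matn2 (chr15:34306677-34436273), and all 10 are annotated as protein-coding.

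Levels were given as FPKM, fragments scaled to gene length and library size. Setting different genes side by side rests on the gene lengths that the authors used, which were not given. The smallest length giving whole reads was 6001 bases for Col2a1 and 3583 for Matn2, against 9243 and 6263 annotated exon bases. Steps between low values put 7285853 to 17546227 reads behind a tumor, the shallowest being SS18-SSX2 tumor 2. Tumors differed widely in RNA of other cell types, in which fewer cells of a type and less RNA per cell cannot be told apart. Summed levels of 22 skeletal muscle fibre genes reached 13085 FPKM in tumor 2 of the SS18-SSX1 group and 5650 FPKM in tumor 2 of the SS18-SSX2 group, against 126 to 548 FPKM in the other 4 tumors, and 8 mast cell genes summed to 2534 FPKM in SS18-SSX1 tumor 3, against 13.5 to 101 FPKM elsewhere.

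The members spanned an enormous range, with type II collagen at the top and its usual partners far below it. Averaged over 6 tumors the order was Col2a1 (447 FPKM), Matn2 (83.3 FPKM), Col9a2 (10.4 FPKM), Comp (6.86 FPKM), Col11a2 (2.76 FPKM), Hapln1 (1.503 FPKM), Col11a1 (1.23 FPKM), Col9a3 (0.744 FPKM), Acan (0.200 FPKM) and Col9a1 (0.0397 FPKM). Col2a1 was above Matn2 in 6 of 6 tumors, and no value of Matn2 was as low as any value of Col9a2 or of a gene further down. From Col9a2 to Acan each gene's range over tumors overlapped that of the next, so these neighbours in the order do not differ beyond their spread. Acan and Col9a1 overlapped too, and both stayed under 1 FPKM in every tumor.

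Of the 10 members, 7 passed the filter of at least 1 FPKM in at least 3 tumors and were tested between genotypes with limma, a linear model fitted across all genes. By limma 0 of the 7 were called at a Benjamini-Hochberg adjusted p under 0.05, against 0.0649% of all 13873 tested genes, and 1, Matn2, had an unadjusted p under 0.05, against 4.97% of all. The levels of 1 member, Matn2, did not overlap between genotypes, where 8.72% of all tested genes did not. The median log2 fold change of the 7, SS18-SSX2 over SS18-SSX1, was 0.46 and that of all tested genes 0.0095, with 6 members higher and 1 lower by mean. No member was called under any of 17 other settings.

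**Figure D1:**
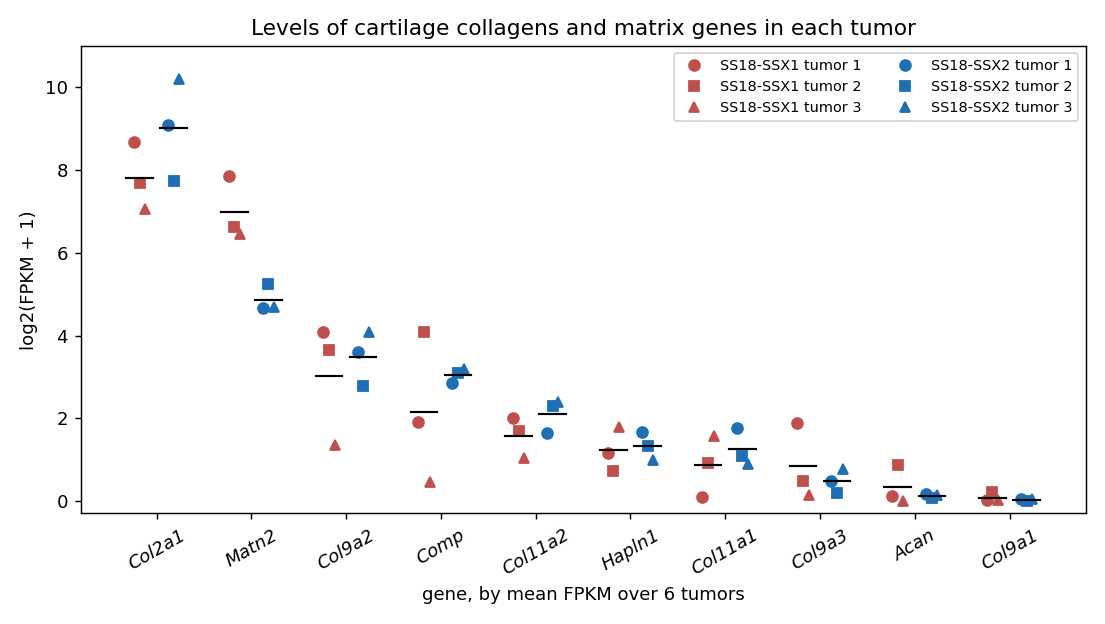
Levels of the 10 genes as log2(FPKM + 1), with 1 point per tumor, colour for genotype, marker shape for tumor number and a black line at the mean of 3 tumors. Col2a1 lies highest in both genotypes, Acan and Col9a1 lie near 0, and the genotypes are apart for Matn2 alone.

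Col2a1 ranked among the most abundant transcripts. Its level was 408, 204 and 133 FPKM across tumors 1, 2 and 3 of the SS18-SSX1 group and 547, 213 and 1175 FPKM across those of the SS18-SSX2 group. The highest and lowest tumors were 8.83-fold apart, and the genotypes overlapped, since SS18-SSX1 tumor 1 exceeded SS18-SSX2 tumor 2. Among 17312 genes it ranked 33, 134 and 260 in tumors 1, 2 and 3 of the SS18-SSX1 group and 21, 136 and 13 in those of the SS18-SSX2 group. The means were 248 ± 143 and 645 ± 489 FPKM (SD, n = 3), and the log2 fold change, taken as SS18-SSX2 minus SS18-SSX1 of log2(FPKM + 1), was 1.21 with SE 0.73 and a 95% interval of -0.48 to 2.89 (limma, Benjamini-Hochberg adjusted p = 0.997). Leaving out SS18-SSX2 tumor 3 gave a fold change of 0.61, and leaving out the muscle-rich SS18-SSX2 tumor 2 gave 1.84. With the muscle level in the fit, the fold change of Col2a1 was 0.95. Col1a1, the main chain of type I collagen in fibrous tissue, had a lower level than Col2a1 in tumor 1 of the SS18-SSX1 group and tumors 1 and 3 of the SS18-SSX2 group, where the ratio of Col2a1 to Col1a1 was 1.55, 1.10 and 1.19. In SS18-SSX1 tumors 2 and 3 and SS18-SSX2 tumor 2 the ratio was 0.0767, 0.535 and 0.257. These ratios rest on gene lengths that were not given, so those near 1 could fall on either side of it.

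The type XI chains, which nucleate type II fibrils, were present at low levels. Col11a2 had 3.03, 2.21 and 1.07 FPKM across tumors 1, 2 and 3 of the SS18-SSX1 group and 2.11, 3.94 and 4.22 FPKM across those of the SS18-SSX2 group. Col11a1 had 0.0706, 0.903 and 1.96 FPKM and 2.42, 1.13 and 0.866 FPKM in the same order. Both genes overlapped between genotypes, and the chains did not follow each other: the ratio of Col11a1 to Col11a2 ran from 0.0233 in SS18-SSX1 tumor 1 to 1.84 in SS18-SSX1 tumor 3. The level of Col2a1 was 53.97 to 278 times that of Col11a2 and 67.8 to 5776 times that of Col11a1. In limma the log2 fold change was 0.53 for Col11a2 (SE 0.37) and 0.39 for Col11a1 (SE 0.45), both with an adjusted p of 0.997. Without SS18-SSX1 tumor 1, the tumor with the lowest Col11a1, the fold change of Col11a1 was 0.0068.

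Type IX collagen was represented mostly by Col9a2. Its level was 15.9, 11.7 and 1.55 FPKM across tumors 1, 2 and 3 of the SS18-SSX1 group and 11.2, 5.85 and 16.1 FPKM across those of the SS18-SSX2 group, with SS18-SSX1 tumor 3 far below the rest. Col9a3, which overlaps Tcfl5 on the opposite strand over 234 exon bases, had 2.69, 0.396 and 0.104 FPKM and then 0.411, 0.142 and 0.723 FPKM. SS18-SSX1 tumor 1 was thus the high tumor for Col9a3, and Col9a2 was still 5.93 times as high there, with a median ratio of 24.7 over the 6 tumors. The sources used here do not give strand handling, and reads of Col9a3 and Tcfl5 in the shared bases cannot be told apart. Col9a1 had 1, 11 and 1 reads across tumors 1, 2 and 3 of the SS18-SSX1 group and 2, 0 and 2 reads across those of the SS18-SSX2 group, or at most 0.158 FPKM. The count of 0 allows up to 0.0813 FPKM, taking 3 reads as the floor, which covers counting error only. For Col9a2 the log2 fold change was 0.46 with SE 0.71 and an interval of -1.17 to 2.10 (limma adjusted p = 0.997), and it was -0.38 without SS18-SSX1 tumor 3.

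Aggrecan and its link protein, which take part in the gel of cartilage, had low levels. Acan had 9, 83 and 1 reads across tumors 1, 2 and 3 of the SS18-SSX1 group and 13, 3 and 11 reads across those of the SS18-SSX2 group. This put it at 0.820 FPKM in SS18-SSX1 tumor 2 (exact Poisson 95% interval 0.653 to 1.02) and at 0.00775 to 0.122 FPKM in the other 5 tumors. Hapln1 had 1.25, 0.647 and 2.46 FPKM and then 2.16, 1.52 and 0.978 FPKM, in the same order of tumors. The genotypes overlapped for both genes, and the lowest Hapln1 level was in SS18-SSX1 tumor 2, which had the highest Acan. The log2 fold change of Hapln1 was 0.10 with SE 0.38 (limma adjusted p = 0.997), and its direction turned under quantile normalization, to -0.013. Col9a1, Col9a3 and Acan fell under the filter. Fitted without that filter over 17312 genes, their log2 fold changes were -0.06, -0.34 and -0.20 (limma adjusted p = 0.995 for each).

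Comp, which binds collagens in cartilage and tendon, varied more between SS18-SSX1 tumors than between SS18-SSX2 tumors. It had 2.79, 16.1 and 0.376 FPKM across tumors 1, 2 and 3 of the SS18-SSX1 group and 6.27, 7.53 and 8.16 FPKM across those of the SS18-SSX2 group. The SS18-SSX2 values lie close together inside the range of the SS18-SSX1 values, which is 42.7-fold wide. The log2 fold change was 0.89 with SE 0.80 and an interval of -0.96 to 2.74 (limma adjusted p = 0.997). It was 1.86 without SS18-SSX1 tumor 2 and 0.04 without SS18-SSX1 tumor 3. In SS18-SSX1 tumor 2, the tumor with the most muscle RNA, the tendon genes Thbs4 and Mkx were also at their highest, with 16.8 and 10.1 FPKM against at most 2.75 and 4.07 FPKM elsewhere, and so were the joint matrix gene Cilp (23.1 FPKM) and Spp1, a gene of bone matrix and of macrophages (372 FPKM against at most 11.2 FPKM). Ibsp, another bone gene, was also highest in SS18-SSX1 tumor 2 (6.64 FPKM against at most 0.899 FPKM). Other genes of the same lists peaked elsewhere. The tendon gene Tnmd peaked in SS18-SSX1 tumor 1 (7.60 FPKM). Scx, another tendon gene, peaked in SS18-SSX1 tumor 3 (42.4 FPKM, against 40.5 FPKM in SS18-SSX1 tumor 2). The bone genes Phex (31.6 FPKM) and Sp7 (12.4 FPKM) peaked in SS18-SSX2 tumor 2. Phex did not overlap between genotypes, being higher with SS18-SSX2, where 8.72% of all tested genes did not overlap. Within the SS18-SSX1 group Phex peaked in tumor 2 (1.65 FPKM) and Sp7 in tumor 3 (4.77 FPKM). The summed level of 6 tendon and ligament genes ran from 39.7 to 80.9 FPKM in the SS18-SSX1 group and from 45.9 to 65.1 FPKM in the SS18-SSX2 group. The part of these tissues in the level of Comp was not tested. The fold change of Comp was 1.26 with the muscle level in the fit.

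Matn2 was the member with the clearest difference in level, lower in every SS18-SSX2 tumor than in any SS18-SSX1 tumor, but the difference did not pass the test over all genes. Matn2 encodes matrilin-2, a matrilin that is found in many connective tissues, unlike its cartilage relatives. Its level was 229, 98.0 and 87.0 FPKM across tumors 1, 2 and 3 of the SS18-SSX1 group and 24.3, 36.9 and 24.8 FPKM across those of the SS18-SSX2 group. The ratio of mean levels was 0.207. The log2 fold change was -2.12 with SE 0.41 and an interval of -3.07 to -1.16 that is not adjusted for the number of genes (limma unadjusted p = 0.000962, adjusted p = 0.363). By unadjusted p it ranked 36 among 13873 genes. Over 17 other settings the fold change stayed negative, from -2.48 to -1.68, and the adjusted p ran from 0.224 to 0.99997 without passing.

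The fold change of Matn2 was -2.12 with the muscle level in the fit, and without both muscle-rich tumors it was -2.48 (limma adjusted p = 0.224). Mast cell genes also had lower means in the SS18-SSX2 group for all 7 tested genes, with a median log2 fold change of -2.72. Of the 7, 0 were called by limma and 2 had an unadjusted p under 0.05, against 4.97% of all tested genes. Their levels did not overlap between genotypes for 3 of the 7, against 8.72% of all tested genes. The summed level of the mast cell list was 65.4 to 2534 FPKM with SS18-SSX1 and 13.5 to 63.4 FPKM with SS18-SSX2. These sums were kept apart only by the narrow gap between 65.4 and 63.4 FPKM. Matn2 was highest in SS18-SSX1 tumor 1, not in the mast cell-rich SS18-SSX1 tumor 3, and without the latter its fold change was -2.38. The part of mast cells in the level of Matn2 was not tested. An unrelated gene on the opposite strand, 9430069I07Rik, shares 70 exon bases with Matn2.

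**Figure D2:**
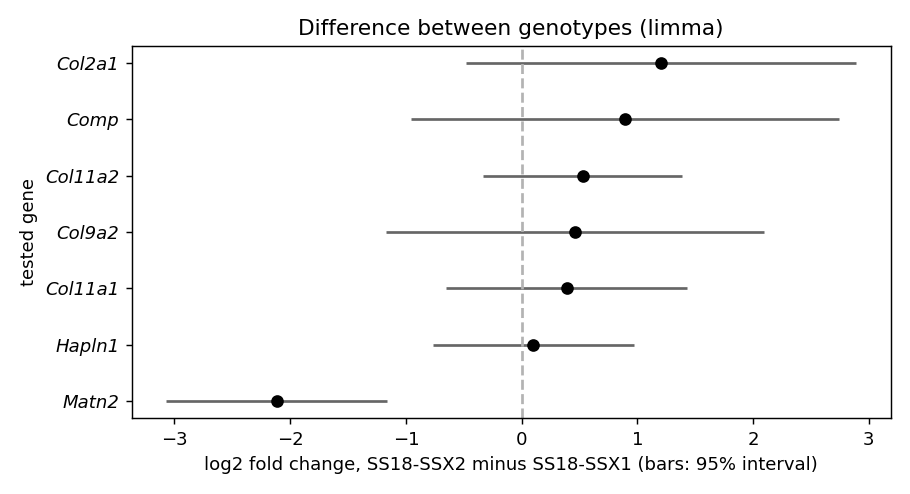
Log2 fold change between genotypes, SS18-SSX2 minus SS18-SSX1, for the 7 tested genes, with 95% intervals from limma not adjusted for the number of genes. The interval of Matn2, -3.07 to -1.16, lies below 0 and those of the 6 other genes include 0.

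**Figure D3:**
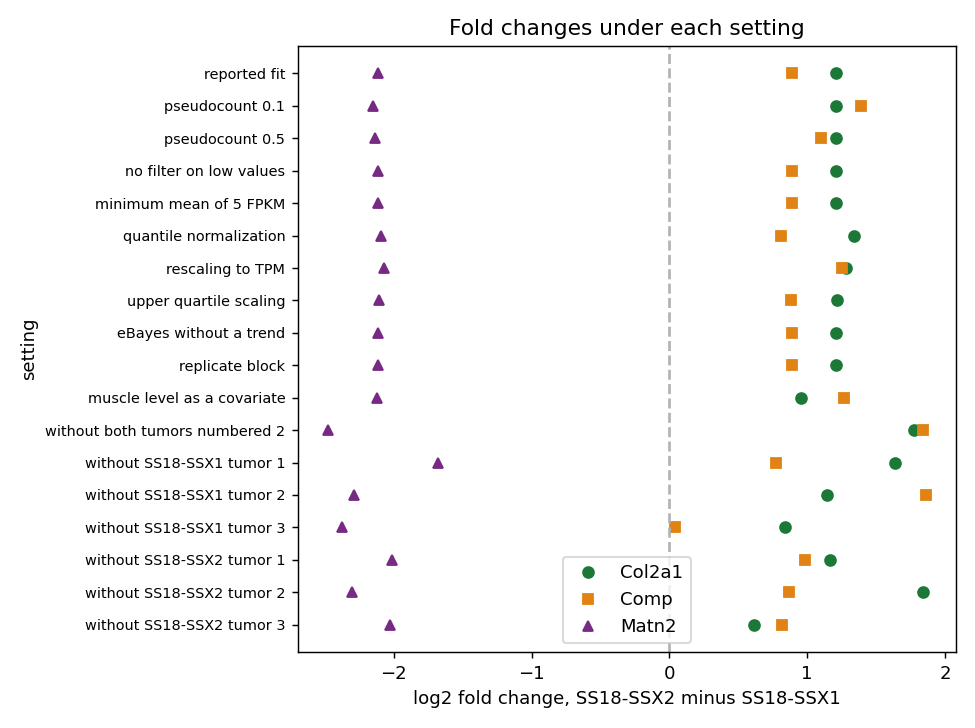
Log2 fold change of Col2a1, Comp and Matn2 under the reported fit and 17 other settings. Matn2 stays between -2.48 and -1.68, Col2a1 between 0.61 and 1.84, and Comp between 0.04 and 1.86, its lowest value coming without SS18-SSX1 tumor 3.

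The make-up of the summed level of the 10 members is given here for each tumor. Col2a1 made up 61.5%, 60.9% and 58.5% of it across tumors 1, 2 and 3 of the SS18-SSX1 group and 91.8%, 78.8% and 95.5% across those of the SS18-SSX2 group. Matn2 made up 34.6%, 29.3% and 38.2% and then 4.07%, 13.7% and 2.01%. The other 8 genes together made up 2.53% to 9.81% in any tumor. The groups did not overlap in either share, but the 2 shares are near complements and so are not separate results. By level, Matn2 did not overlap between genotypes and Col2a1 did. These shares are a description of the tumors that was not tested.

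Other markers of chondrocytes were low beside Col2a1. Of 12 chondrocyte markers, 8 were in the table and 4 of those passed the filter, Col2a1, Col11a2, Hapln1 and Sox9. Matn1, Matn3, Snorc and Ucma were absent under these symbols from the deposited genes, so they were not analysed here. Sox9, the regulator of Col2a1 in cartilage, had 4.50, 15.1 and 10.96 FPKM across tumors 1, 2 and 3 of the SS18-SSX1 group and 5.04, 10.8 and 5.81 FPKM across those of the SS18-SSX2 group. The 3 tumors with the highest Col2a1 were the 3 with the lowest Sox9, and the ratio of Col2a1 to Sox9 ran from 12.2 to 202. These 3 tumors also had the lowest summed level of macrophage genes, 49.3 to 171 FPKM against 375 to 668 FPKM. Their summed level of endothelial genes was the highest, 72.4 to 88.2 FPKM against 11.6 to 41.2 FPKM. The split is thus not particular to Sox9, and its cause was not tested. Chad, a leucine-rich repeat protein of cartilage, was at 0 in SS18-SSX1 tumors 1 and 3, at 1.82 FPKM in SS18-SSX1 tumor 2 and at 0.205 to 0.290 FPKM in SS18-SSX2 tumors. Cnmd, which encodes chondromodulin, had 6.80 FPKM in SS18-SSX1 tumor 1 and at most 0.711 FPKM in the others. Level by level, the tumors thus carried type II collagen RNA at 133 FPKM or more together with aggrecan RNA under 1 FPKM.

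**Figure D4:**
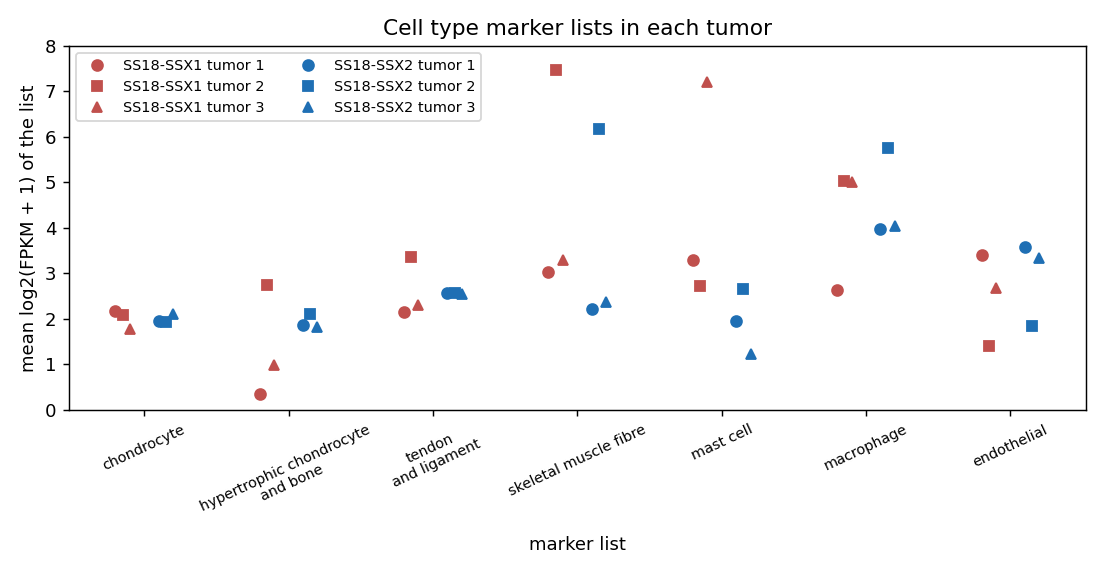
Mean log2(FPKM + 1) of 7 marker lists in each tumor, with colour for genotype and shape for tumor number. Skeletal muscle genes are high in tumor 2 of each genotype and mast cell genes in SS18-SSX1 tumor 3, while the chondrocyte list, which includes Col2a1, lies between 1.79 and 2.18 in all tumors.

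The genes whose pattern over the 6 tumors was most like that of a member were found by the root mean square difference of log2(FPKM + 1), each gene centred on its own mean. For Col2a1 these were Otof, a calcium sensor of synaptic vesicle release (0.26), Myo18a, an unconventional myosin (0.27), and the receptor gene Notch1 (0.29). Notch1 had 14.6, 7.80 and 5.53 FPKM across tumors 1, 2 and 3 of the SS18-SSX1 group and 21.7, 8.09 and 29.3 FPKM across those of the SS18-SSX2 group. The nearest other member to Col2a1 was Col9a2, at 0.71. For Comp the nearest were the microRNA gene Mir27b (0.35), the metallothionein gene Mt2 (0.36) and the small heat shock protein gene Hspb2 (0.36), and for Matn2 they were Minar1 (0.20), the protease inhibitor gene Serpine2 (0.33) and the thyroid hormone carrier gene Ttr (0.33). Serpine2 had 211, 76.9 and 67.3 FPKM in the SS18-SSX1 group and 33.2, 24.2 and 24.4 FPKM in the SS18-SSX2 group. Acan did not pass the filter and was not compared in this way. With 6 tumors and 13873 genes, close matches are a description of these libraries.

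Transcription factors of chondrocyte development were measured in all tumors. Of 12 such genes 11 were tested and 0 were called by limma. An unadjusted p under 0.05 was found for 2 of the 11, against 4.97% of all tested genes. The mean was greater with SS18-SSX2 for 7 and smaller for 4, and the median log2 fold change was 0.20. Sox8, a relative of Sox9, averaged 1.09 ± 0.556 FPKM in the SS18-SSX1 group and 4.99 ± 2.56 FPKM in the SS18-SSX2 group (SD, n = 3; limma adjusted p = 0.719). Runx3, which promotes chondrocyte maturation, had 2.91 ± 2.38 and 6.80 ± 1.30 FPKM (limma adjusted p = 0.952). Neither gene overlapped between the genotypes, where 8.72% of all tested genes did not, and both were named for having the smallest p. The partners of SOX9 were also measured: Sox6 ranged from 7.94 to 14.6 FPKM and Sox5 from 0.813 to 2.94 FPKM. The highest levels in the group were those of Trps1, a GATA-type repressor of the growth plate, and Creb3l2, which promotes secretion of cartilage matrix.

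Among 27 other matrix genes of cartilage and joint tissue 15 were tested and 0 were called by limma. Here 2 of the 15 had an unadjusted p under 0.05, against 4.97% of all tested genes, both with higher levels in SS18-SSX2 tumors. The same 2 were those without overlap between genotypes, against 8.72% of all tested genes. Cilp2, a cartilage intermediate layer protein, had 39.2, 29.3 and 32.1 FPKM in the SS18-SSX1 group and 56.2, 88.2 and 113 FPKM in the SS18-SSX2 group, with no overlap (limma adjusted p = 0.573). Vcan encodes versican, a large proteoglycan related to aggrecan that is typical of loose and embryonic connective tissue. It had 14.7, 26.3 and 17.2 FPKM and then 76.3, 34.7 and 45.6 FPKM, again with no overlap (limma adjusted p = 0.593). Versican RNA thus exceeded aggrecan RNA in every tumor. The 2 most abundant genes of the list were Col16a1, a fibril-associated collagen, at 223 ± 106 and 197 ± 97.0 FPKM, and Hspg2, which encodes perlecan, at 70.2 ± 40.9 and 80.4 ± 35.4 FPKM (SD, n = 3). The median of the list was 0.33, with 10 genes higher and 5 lower by mean, and it was 0.0090 without SS18-SSX1 tumor 3 and 0.72 without both tumors numbered 2.

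The genes that fold, process and crosslink collagen chains ranged widely in level, from Ppib and P4hb at the top to 4 genes under 1 FPKM in all tumors, P4ha3, Adamts3, Adamts14 and Loxl4. Of 27 genes 22 were tested and 0 were called by limma. An unadjusted p under 0.05 was found for 2 of the 22, against 4.97% of all tested genes. Levels of 2 did not overlap between genotypes, against 8.72% of all tested genes. The mean was smaller with SS18-SSX2 for 17 and greater for 5, and the median of -0.23 became 0.12 without SS18-SSX1 tumor 1. Ppib, a prolyl isomerase of collagen folding, had 1091, 322 and 425 FPKM in the SS18-SSX1 group and 351, 454 and 407 FPKM in the SS18-SSX2 group. P4hb, a subunit of the prolyl hydroxylase that stabilises the triple helix, had 444, 440 and 683 FPKM and then 319, 394 and 325 FPKM, with no overlap (limma adjusted p = 0.997). Lox, the enzyme that crosslinks collagens, averaged 1.90 ± 2.16 FPKM with SS18-SSX1 against 9.77 ± 7.72 FPKM (SD, n = 3), at a limma adjusted p of 0.810. Pcolce2, an enhancer of procollagen processing, had 25.3, 3.60 and 4.13 FPKM and then 0.804, 2.76 and 0.316 FPKM, so that SS18-SSX1 tumor 1 was its high tumor as for Matn2, Col9a3 and Cnmd (limma adjusted p = 0.840).

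Enzymes that build chondroitin sulfate and hyaluronan, the sugar chains of the aggrecan gel, showed no common direction. Of 28 genes 24 were tested and 0 were called by limma, with 12 higher and 12 lower by mean and a median of -0.0035. An unadjusted p under 0.05 was found for 2 of the 24, against 4.97% of all tested genes. Both of the 2 had lower levels in SS18-SSX2 tumors without overlap, where 8.72% of all tested genes did not overlap. Papss2, which makes the sulfate donor for cartilage proteoglycans, had 13.2, 2.078 and 8.59 FPKM and then 1.67, 1.43 and 0.805 FPKM (limma adjusted p = 0.790). Chst11, a chondroitin sulfotransferase, had 5.54, 2.79 and 6.70 FPKM and then 2.60, 1.74 and 2.41 FPKM (limma adjusted p = 0.990). Papss1, the other enzyme that makes the sulfate donor, was higher than Papss2 in every tumor, at 53.0 ± 10.7 and 44.4 ± 1.95 FPKM (SD, n = 3). Csgalnact2, which starts chondroitin chains, followed it in abundance, at 32.2 ± 15.5 and 19.3 ± 4.64 FPKM.

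Proteases and hyaluronidases that degrade matrix, together with protease inhibitors, had 15 of 18 genes tested. Of these 0 were called by limma and 2 had an unadjusted p under 0.05, against 4.97% of all tested genes. By mean 11 were lower and 4 higher in SS18-SSX2 tumors, and the median was -0.24. Mmp2, a gelatinase, had 352, 281 and 324 FPKM in the SS18-SSX1 group and 157, 136 and 175 FPKM in the SS18-SSX2 group (limma adjusted p = 0.810). Timp2, an inhibitor that also takes part in activating the MMP2 protein, had 91.3, 123 and 50.8 FPKM and then 28.8, 42.9 and 30.7 FPKM (limma adjusted p = 0.661). Neither gene overlapped between genotypes, where 8.72% of all tested genes did not. Mmp14, the membrane protease that activates MMP2, had 162 ± 16.0 and 161 ± 52.0 FPKM (SD, n = 3), and the log2 fold change was -0.06 with SE 0.37.

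Matrix receptors, among them those for collagen and hyaluronan, had 8 of 10 genes tested. Of these 0 were called by limma and 0 had an unadjusted p under 0.05, against 4.97% of all tested genes, and the median was -0.0040. Levels of 1 of the 8 did not overlap between genotypes, against 8.72% of all tested genes. Itgb1, the shared beta chain of the collagen-binding integrins, was the most abundant, at 171 ± 50.6 and 166 ± 54.7 FPKM (SD, n = 3). Ddr1 and Ddr2 encode receptor tyrosine kinases that bind collagen, Ddr2 with a preference for fibrillar collagens that include type II. Ddr1 had 15.7, 13.6 and 15.6 FPKM and then 16.1, 26.6 and 29.7 FPKM, without overlap, and Ddr2 had 50.6, 35.5 and 39.5 FPKM and then 78.4, 38.1 and 63.0 FPKM, with overlap (limma adjusted p = 0.997 for both).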

How the data were processed

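Total RNA of 6 tumors was extracted with Qiagen RNeasy kits and made into Ribo-Zero libraries, per the labels' protocols. The authors deposited 1 table of FPKM, with 1 column per tumor. Per the submitters' processing notes, the tools and builds named are Novoalign 2.08.03 and mm10, in roles not stated; for the counting tool, gene models, strand handling and gene filter nothing was given in the sources used here. Columns were matched to tumors by sample description, and symbols and GRCm38 positions came from GENCODE mouse release 21 (17029 of 17312 genes).

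Genes with at least 1 FPKM in at least 3 tumors (13873) were tested as log2(FPKM + 1) in limma 3.58.1 (R 4.3.3; trend, two-sided, Benjamini-Hochberg over all tested genes, threshold 0.05). The 1 added to FPKM makes fold changes of low genes smaller. The script was tested on simulated data. Depth came from the values of 1475 single-exon genes and was chosen to bring their FPKM closest to whole reads. At that depth 75.4% to 78.5% of their low values in a tumor were whole within 0.02 reads, and the rest were not. Reads of all 10 members were then whole, for 3 with the annotated exon length and for 7 with a fitted length, which may be off by a common factor. The members, lists and tests were chosen with earlier results of these data known. Named genes were all members and, per list, the 2 with the smallest p and the 2 with the highest mean. The 3 genes nearest in pattern to each of Col2a1, Comp and Matn2 were named too. Thbs4, Mkx, Tnmd, Scx, Phex, Sp7, Ibsp, Cilp and Spp1 were named after their values were seen. So were Sox9, Sox5, Sox6, Col1a1, P4ha3, Adamts3, Adamts14, Loxl4, Chad and Cnmd. Alternatives changed the pseudocount, filter, scaling, variance trend, covariates and tumors included.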

Additional observations from a re-analysis of the deposited data

How the results depend on the processing

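Over 17 other settings no member was called, and Col2a1, Col11a1, Col11a2, Comp and Matn2 kept the direction of their mean difference in each setting that tested them (a minimum mean of 5 FPKM left out Col11a1, Col11a2 and Hapln1). The fold change of Hapln1 turned to -0.013 with quantile normalization and to -0.16 without both tumors numbered 2, and ran from -0.15 to 0.38 with 1 tumor left out. That of Col9a2 ran from -0.38 to 0.99 with 1 tumor left out. The cause of these turns was not tested. Over all settings the list medians ran from -0.097 to 0.48 for transcription factors, -0.10 to 0.078 for chondroitin sulfate and hyaluronan synthesis, -0.50 to -0.11 for matrix breakdown and -0.0086 to 0.31 for matrix receptors. Among all genes 9 were called in the reported fit, 5 with a pseudocount of 0.1, 20 without both tumors numbered 2, and 3 to 11 with 1 tumor left out, 3 of them without SS18-SSX2 tumor 3.

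Tumor numbers are shared between the genotypes, but the labels state no pairing, and the numbers were not taken as pairs. Deviations of same-numbered tumors from their group means correlated at 0.38, 0.31 and -0.28 over genes. Those of differently numbered tumors correlated at -0.44 to 0.23. These values do not settle whether tumors numbered 1 or 2 share something beyond genotype. With tumor number as a replicate block 4 genes were called and no member was. The levels of Col9a1 and Acan rest on few reads, 17 and 120 in all tumors together.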
